A study of Mus musculus with 44 samples.

Results

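RNA was compared in 6 libraries of mouse stomach antrum organoids, cultures grown in a gel from the epithelium of the lower stomach, 3 homozygous for a deletion of a Cdx2 enhancer and 3 wild type at it, out of 20 RNA libraries and 44 samples in the series. The members are all libraries that the labels call homozygous deletion or wild type in this experiment, and all 19733 genes of the count table were used. Every library came from C57BL/6 organoids that overexpressed HNF4A, wild type included, so the deletion was read out only in HNF4A-overexpressing cells. The deletion was made with CRISPR-Cas9 in the mouse germline. Another 3 libraries of heterozygous organoids shared the fit and are given for reference where they add a value. How the HNF4A transgene was driven, the ages of the mice and whether replicates came from separate animals are not given in the labels, so p-values measure the spread between these libraries. The comparison asks what HNF4A-overexpressing stomach cells express when both copies of the enhancer are missing.

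Cdx2 encodes a homeodomain transcription factor that specifies intestinal epithelium; the adult stomach normally lacks it, and its appearance there accompanies intestinal metaplasia. HNF4A is a nuclear receptor that acts with CDX2 at many genes of intestinal enterocytes. Enhancers are DNA elements outside the promoter that raise transcription of a gene in particular cells. The known work of CDX2 in the gut covers its own relative Cdx1, cell adhesion proteins of the brush border, the receptor for guanylin and genes of digestion and mucus.

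A pair of the 6 libraries stood apart from the rest. Wild-type replicate 3 had Xist, the RNA of the inactive X chromosome, at 0.382 CPM (reads of the gene over the library size as scaled by edgeR, the unit used throughout for levels), against 1910 to 3160 CPM in the other 5 libraries, and the Y-linked Ddx3y at 101 CPM against at most 0.12 CPM. Homozygous replicate 3 held the most RNA of a list of 28 fibroblast genes, with a sum of 3000 CPM, against 345 and 629 CPM in homozygous replicates 1 and 2 and 272 to 453 CPM in wild type. The fibronectin gene Fn1 alone made up 411, 256 and 440 CPM of the wild-type sums of 424, 272 and 453 CPM. In homozygous replicates 1, 2 and 3 Fn1 made up 267, 401 and 845 CPM, so the other listed genes were higher there than in wild type in all 3 when summed. The 14 epithelial markers of homozygous replicate 3 summed to 6820 CPM, against 9850 and 9780 CPM in the other homozygous libraries and 9960 to 14900 CPM in wild type. The epithelial markers Epcam (772 to 1170 CPM in homozygous, 1180 to 1450 CPM in wild type) and Krt8 (819 to 1830 CPM in homozygous, 1610 to 3060 CPM in wild type) were abundant in all 6 libraries. In such bulk libraries fewer cells of a type and less RNA per cell cannot be told apart. Total counts ran from 8173640 to 11430311.

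The calls depended on the tool. The edgeR quasi-likelihood test, with p-values adjusted by Benjamini-Hochberg over 12593 genes, called 0 genes (0%) at an adjusted p under 0.05. At an unadjusted p under 0.05 stood 578 genes (4.59%), of which 180 were lower (1.43%) and 398 higher (3.16%) in homozygous organoids. DESeq2 called 32 genes lower (0.254%) and 148 higher (1.18%), and limma-voom called 0. All 3 homozygous libraries lay below all 3 wild-type libraries for 525 genes (4.17%) and above them for 596 genes (4.73%), or 1121 in all (8.9%). The median log2 fold change over all tested genes was 0.00. Every call named below for homozygous against wild-type organoids is therefore a DESeq2 call that edgeR did not make. Of the 32 lower genes of DESeq2, 11 were called again whichever of the 9 libraries was left out. Of these 32, 19 lost their call without homozygous replicate 3, 18 without wild-type replicate 2 and 18 without wild-type replicate 3. The refits without those libraries called 14, 19 and 20 genes lower in all, newly called ones included, and the refit without wild-type replicate 1 called 52.

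Cdx2 itself was the gene with the smallest p in the edgeR fit. It had 0.199, 1.36 and 0.585 CPM in homozygous replicates 1, 2 and 3, from 2, 14 and 5 reads, against 16.7, 26.8 and 58.5 CPM in wild-type replicates 1, 2 and 3, from 186, 223 and 460 reads. Every homozygous library lay below every wild-type library. The mean level was 0.716 ± 0.593 CPM in homozygous organoids, against 34.0 ± 21.8 CPM in wild type (SD, n = 3 each). The log2 fold change was -5.53 ± 0.79 (SE), or 46.2-fold lower, with an edgeR adjusted p of 0.377 and a DESeq2 adjusted p of 8.75e-11. Leaving out 1 library moved the edgeR estimate between -6.42 without homozygous replicate 2 and -4.89 without wild-type replicate 3. An exact two-sided permutation test of log2(CPM + 1) gave p = 0.1, the smallest that 3 against 3 libraries allow. Heterozygous libraries had 18.4, 5.54 and 9.3 CPM, and the difference of homozygous from heterozygous organoids was -3.91 ± 0.76 on the log2 scale, called by DESeq2 (adjusted p = 0.000476) and not by edgeR (adjusted p = 1).

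Cdx2 lies on chromosome 5 at 147300900 to 147307249 (mm10) on the minus strand. Its promoter window, from 250 bases before to 50 after the annotated start in the RefSeq table of GRCm38.p6, is shown with those of Lgals2 and Clrn3, a pair of genes called lower by DESeq2 whose windows do hold a match. Capitals mark matches to TTTATNG, the core letters that CDX proteins are known to bind, and to CAAAGTNCA, an HNF4 element, on either strand; no match in one set overlaps a match in the other.
Cdx2, chr5:147307200-147307499, minus strand: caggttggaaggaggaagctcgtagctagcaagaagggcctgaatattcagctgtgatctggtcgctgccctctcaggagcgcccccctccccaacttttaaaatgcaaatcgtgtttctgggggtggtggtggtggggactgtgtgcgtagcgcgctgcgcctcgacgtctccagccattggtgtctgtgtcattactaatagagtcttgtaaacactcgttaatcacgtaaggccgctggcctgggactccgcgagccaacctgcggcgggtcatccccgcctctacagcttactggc
Lgals2, chr15:78855480-78855779, minus strand: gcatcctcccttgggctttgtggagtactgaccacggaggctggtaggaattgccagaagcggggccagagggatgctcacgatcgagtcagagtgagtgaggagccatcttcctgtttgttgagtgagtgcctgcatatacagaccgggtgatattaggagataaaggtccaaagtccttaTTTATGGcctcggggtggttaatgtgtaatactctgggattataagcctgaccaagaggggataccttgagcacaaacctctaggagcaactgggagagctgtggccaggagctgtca
Clrn3, chr7:135528605-135528904, minus strand: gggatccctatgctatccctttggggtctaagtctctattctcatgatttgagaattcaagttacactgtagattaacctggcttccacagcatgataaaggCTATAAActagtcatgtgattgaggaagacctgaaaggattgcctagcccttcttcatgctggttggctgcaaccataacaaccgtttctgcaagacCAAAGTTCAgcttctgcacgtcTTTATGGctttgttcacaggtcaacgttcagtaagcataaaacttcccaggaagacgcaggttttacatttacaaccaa
The Cdx2 window held neither set of letters, the Lgals2 window held the CDX core starting at base -68, and the Clrn3 window held the CDX core at -29 and, on the opposite strand, at -148, with the HNF4 element at -51 between them. Of the 32 genes called lower by DESeq2, 21 matched a promoter entry, and TTTATNG stood in 4 of them (Lgals2, Adh6a, Clrn3 and H2-Q2), against 8.48% of the 9654 tested genes with an entry and 10.9% of all 32851 windows. CAAAGTNCA stood in 2 of the 21 (Muc13 and Clrn3), against 1.43% of tested genes and 1.41% of all windows. A match describes the letters of the window only. The deleted enhancer's position was not in the sources used here.

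**Figure D1:**
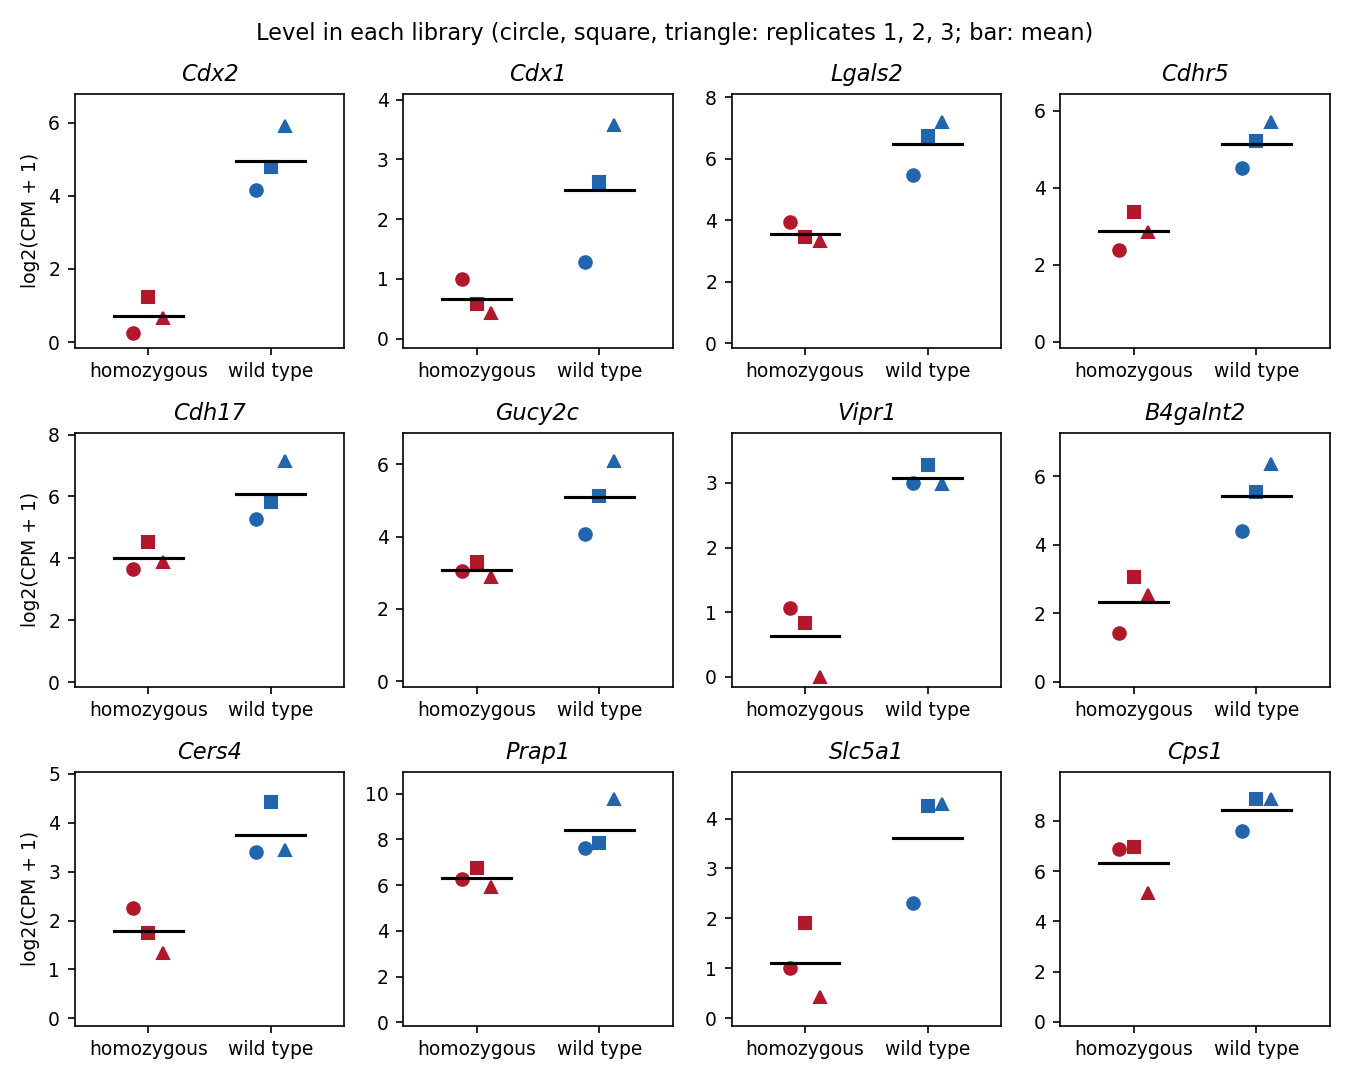
Level of 12 genes, on a log2(CPM + 1) axis, in each homozygous library (left of each panel) and each wild-type library (right), with a bar at the mean. The homozygous points lie below the wild-type points in every panel, and the wild-type libraries differ most among themselves for Cdx1, where replicate 1 had 1.44 CPM and replicate 3 had 10.9 CPM.

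No neighbour of Cdx2 was called. Within 1000 kb on either side, 11 other genes were tested, with log2 fold changes from -0.40 to 0.11, a median of -0.12 and a smallest edgeR adjusted p of 0.987. Pdx1, the nearest tested neighbour and a factor of antral stomach, duodenum and pancreas, had 44.7, 38.9 and 27 CPM in homozygous libraries, against 38.6, 46.1 and 61 CPM in wild type, so the groups overlapped (-0.40 ± 0.26). Rpl21, a ribosomal protein gene, had 578, 595 and 458 CPM in homozygous libraries, against 779, 736 and 616 CPM in wild type (-0.39 ± 0.15). It was the only 1 of the 11 tested neighbours whose groups did not overlap, a share near the 8.9% of all tested genes. The remaining 9 tested neighbours overlapped between the groups.

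**Figure D2:**
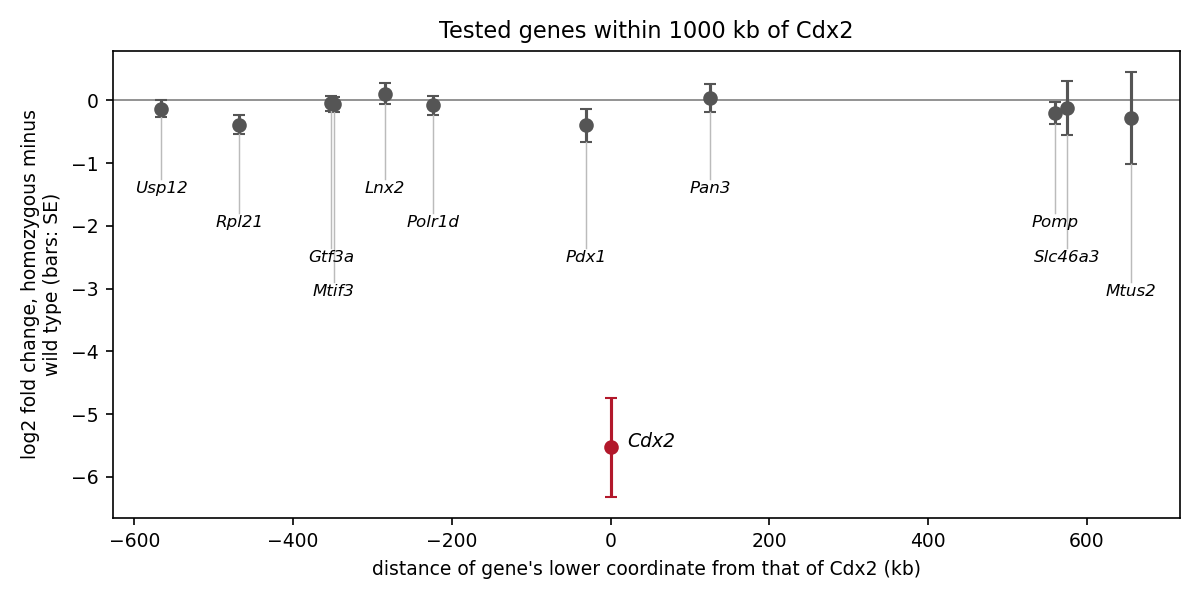
Log2 fold change of homozygous over wild-type organoids, with its SE, for each tested gene within 1000 kb of Cdx2, by the distance of its lower coordinate from that of Cdx2. Cdx2 is at -5.53 and the 11 other genes lie between -0.40 and 0.11.

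Among intestinal transcription factors, Cdx2 and Cdx1 were lower. Of 25 listed factors, 24 were tested and 3 lay without overlap on the lower side (4.17% of all genes) and 0 on the higher side. The median log2 fold change was -0.29, and -0.16 without wild-type replicate 3. Of the list DESeq2 called only Cdx2 and Cdx1 (0.254% of all tested genes were called lower). Cdx1, the paralog of Cdx2, had 0.994, 0.487 and 0.351 CPM in homozygous libraries, against 1.44, 5.17 and 10.9 CPM in wild type. The wild-type libraries spread over a wide range, and replicate 1 stood near the homozygous ones (-3.22 ± 0.76, DESeq2 adjusted p = 0.00864). The Cdx1 call held in 5 of the 9 fits that left out a library, and its estimate was -2.40 without wild-type replicate 3. Hnf4a, whose reads from the transgene cannot be told from its own, had 355, 374 and 336 CPM in homozygous and 320, 443 and 513 CPM in wild-type libraries (-0.26 ± 0.21). Hnf4g, a paralog of Hnf4a, had 10.3, 7.79 and 5.15 CPM in homozygous libraries and 10.1, 20.4 and 25.6 CPM in wild type (-1.26 ± 0.38, DESeq2 adjusted p = 0.127). Isx, an intestinal homeobox gene that restrains vitamin A uptake, had 0.497, 0 and 1.05 CPM in homozygous and 0.539, 4.57 and 11.1 CPM in wild-type libraries (-3.38 ± 1.52, DESeq2 adjusted p = 0.524), so its lowest wild-type library lay within the homozygous range. Its estimate ran from -4.36 without homozygous replicate 3 to -2.29 without wild-type replicate 3.

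Brush border and adhesion genes included 2 of the genes called lower in every fit that left out a library. The brush border is the carpet of microvilli on the surface of absorptive cells, held together at its tips by the cadherins of an adhesion complex. Of 18 listed genes, 16 were tested and 14 had a fitted value below 0 (49.8% of all tested genes did). On the lower side 4 lay without overlap (4.17% of all) and on the higher side 0. The median was -0.45, and -0.20 without wild-type replicate 3. The 14 general epithelial markers gave like values, with 14 below 0 and 4 without overlap on the lower side. Their median was -0.44, and -0.27 without wild-type replicate 3. The part of these markers in the values of the other epithelial lists was not tested. Cdhr5, a microvillar protocadherin of that complex, had 4.18, 9.35 and 6.2 CPM in homozygous libraries, against 22, 36.2 and 50.7 CPM in wild type. The highest homozygous library lay below the lowest wild-type library, with a log2 fold change of -2.46 ± 0.37 (DESeq2 adjusted p = 1.83e-06), and it was called whichever of the 9 libraries was left out. Cdh17, the liver-intestine cadherin of the lateral membrane, had 11.5, 22.1 and 13.9 CPM in homozygous libraries, against 37.7, 55.9 and 142 CPM in wild type. Its groups did not overlap either (-2.31 ± 0.47, DESeq2 adjusted p = 0.000499), although its estimate was -1.56 without wild-type replicate 3. Calml4, a calmodulin-like component of the complex, had 96.1, 87.1 and 68.2 CPM in homozygous libraries, against 115, 158 and 153 CPM in wild type (-0.76 ± 0.18, DESeq2 adjusted p = 0.0173), and its call held in 4 of the 9 fits that left out a library. Ezr, which encodes the membrane linker ezrin and was the most abundant listed member, overlapped between the groups at 586 to 761 CPM in homozygous libraries, against 759 to 973 CPM in wild type (-0.25 ± 0.20).

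In the guanylin pathway DESeq2 called 1 of 6 tested genes lower, Gucy2c (0.254% of all tested genes). Gucy2c, the guanylate cyclase receptor for guanylin and uroguanylin, had 7.26, 8.86 and 6.43 CPM in homozygous libraries, against 15.7, 33.8 and 67.4 CPM in wild type. Homozygous libraries clustered within a narrow range while wild-type ones spread, and the groups did not overlap (-2.37 ± 0.46, DESeq2 adjusted p = 0.000409). Without wild-type replicate 3 its estimate was -1.72. Vipr1, a receptor for vasoactive intestinal peptide that stands in none of the lists, had 1.09, 0.779 and 0 CPM in homozygous libraries, against 7.01, 8.66 and 6.87 CPM in wild type, and its groups did not overlap (-3.53 ± 0.83, DESeq2 adjusted p = 0.000409). Without homozygous replicate 1 its estimate was -4.18. Of the 8 guanylin-pathway genes listed, Gucy2c alone among those tested lay without overlap (8.9% of all tested genes did). Guca2b, which encodes uroguanylin, the ligand, was near the counting floor, at 0.389 to 1.59 CPM in homozygous libraries, against 0.719 to 2.89 CPM in wild type, where 3 reads correspond to 0.27 to 0.381 CPM.

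DESeq2 called 2 of 8 tested genes of sugar digestion and 2 of 16 tested genes of ion and iron transport lower (0.254% of all tested genes). In the sugar list 3 genes lay without overlap on the lower side, against 4.17% of all tested genes. The median of that list was -0.70, and -0.42 without homozygous replicate 3. Slc5a1, the sodium-glucose transporter SGLT1, had 0.994, 2.73 and 0.351 CPM in homozygous libraries, against 3.95, 18 and 18.7 CPM in wild type (-3.29 ± 0.77, DESeq2 adjusted p = 0.00291). Its groups did not overlap, and replicate 1 was the lowest wild-type library. Its call held in 7 of the 9 fits that left out a library, and the estimate was -4.28 without homozygous replicate 2. Mgam, the maltase-glucoamylase, was at 30.4 to 98.9 CPM in homozygous libraries, against 84.5 to 132 CPM in wild type, which overlapped (-0.82 ± 0.45, and -1.44 without homozygous replicate 2). Hkdc1, a hexokinase-like protein, had 3.38, 1.95 and 3.74 CPM in homozygous libraries, against 8.09, 12.5 and 15.9 CPM in wild type (-2.0 ± 0.47, DESeq2 adjusted p = 0.00991), with the call kept in 6 of 9 such fits. Heph, the ferroxidase hephaestin that passes iron from the enterocyte to blood, had 5.07, 4.87 and 8.89 CPM in homozygous libraries, against 17.3, 32.3 and 86.3 CPM in wild type (-2.85 ± 0.95, DESeq2 adjusted p = 0.0439). Its call held in 4 of the 9 fits, and the estimate was -1.99 without wild-type replicate 3. In the list of 21 genes of fat absorption, 17 were tested, 1 lay without overlap on the lower side (4.17% of all tested genes) and none was called. The median was -0.41, and -0.13 without homozygous replicate 3. Npc1l1, the cholesterol uptake protein, had 2.19, 1.95 and 2.11 CPM in homozygous libraries and 2.88, 4.81 and 7.12 CPM in wild type (-1.24 ± 0.54). Apob, the structural protein of chylomicrons, had a log2 fold change of 0.32 ± 0.28.

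DESeq2 called 2 of 19 tested glycosylation genes and 1 of 8 tested galectin genes lower (0.254% of all tested genes). Lgals2, a galectin of the gut epithelium, had 14.2, 9.83 and 8.89 CPM in homozygous libraries, against 43.6, 106 and 145 CPM in wild type. No homozygous library reached the lowest wild-type value, and the log2 fold change was -3.16 ± 0.47 (DESeq2 adjusted p = 2.25e-08). B4galnt2, the glycosyltransferase that makes the Sda sugar epitope, had 1.69, 7.3 and 4.8 CPM in homozygous libraries, against 20.3, 45.2 and 81.9 CPM in wild type (-3.41 ± 0.67, DESeq2 adjusted p = 0.000105). Cers4, a ceramide synthase, had 3.78, 2.34 and 1.52 CPM in homozygous libraries, against 9.62, 20.6 and 9.79 CPM in wild type (-2.38 ± 0.45, DESeq2 adjusted p = 0.000477). These 3 were called again whichever library was left out. Of the 19 glycosylation genes, 18 had a fitted value below 0, against 49.8% of all tested genes, and 5 lay without overlap on the lower side, against 4.17%, with a median of -0.35. Galnt6, a mucin-type glycosyltransferase and the most abundant of the glycosylation list, was at 191 to 309 CPM in homozygous libraries, against 240 to 319 CPM in wild type (-0.24 ± 0.35). Lgals3bp, which binds galectins, was at 202 to 389 CPM in homozygous libraries, against 320 to 415 CPM in wild type (-0.23 ± 0.24). Another galectin gene, Lgals1, was called higher by DESeq2, as were 1.18% of all tested genes. It had 23.4, 57.7 and 344 CPM in homozygous libraries, against 12, 8.06 and 5.09 CPM in wild type (4.06 ± 1.17, DESeq2 adjusted p = 0.0281). Its estimate was 2.26 without homozygous replicate 3.

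DESeq2 called 4 of 13 tested goblet cell genes lower (0.254% of all tested genes). Of the 13, 11 had a fitted value below 0 (49.8% of all tested genes), with a median of -1.21, but the median was -0.07 without wild-type replicate 3. Muc13, a membrane mucin, had 3.28, 3.31 and 4.8 CPM in homozygous libraries, against 5.75, 63 and 79.6 CPM in wild type, so replicate 1 of the wild type stood next to the homozygous libraries (-3.70 ± 0.91, DESeq2 adjusted p = 0.000995). Fcgbp, a mucus protein of goblet cells, had 4.08, 5.74 and 2.46 CPM in homozygous libraries, against 5.66, 16 and 147 CPM in wild type, and these groups overlapped. Its DESeq2 call (adjusted p = 0.00535) held in 4 of the 9 fits that left out a library, and its estimate of -3.76 was -1.4 without wild-type replicate 3. Tspan12, a tetraspanin, had 55, 52.6 and 36.1 CPM in homozygous libraries, against 98.1, 87.9 and 148 CPM in wild type, and lost its call in 1 of the 9 fits, that without homozygous replicate 3 (-1.21 ± 0.25, DESeq2 adjusted p = 0.00265). Spink4, a secreted peptidase inhibitor, had 8.75, 5.06 and 5.15 CPM in homozygous libraries, against 8.99, 21.8 and 30.3 CPM in wild type (-1.68 ± 0.43, DESeq2 adjusted p = 0.0262), with the call kept in 3 of the 9 fits. Agr2, a disulphide isomerase and the most abundant listed gene, overlapped, at 160 to 479 CPM in homozygous libraries, against 130 to 318 CPM in wild type (0.33 ± 0.42).

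**Figure D3:**
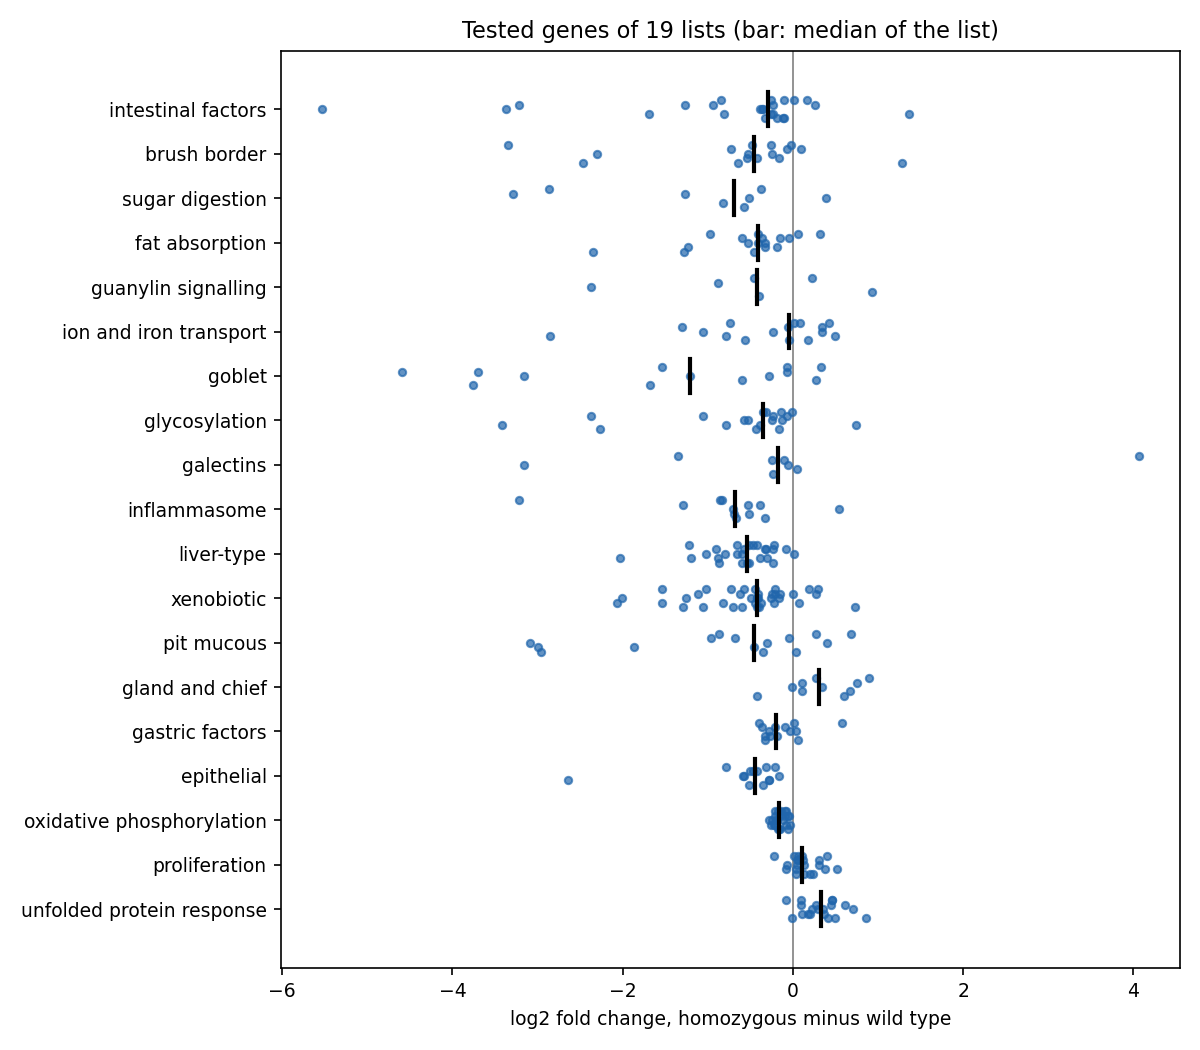
Log2 fold change of homozygous over wild-type organoids for each tested gene of 19 lists, with a bar at the median of each list. The goblet list has the lowest median, at -1.21, and the gland and chief list and the unfolded protein response list lie above 0, at 0.30 and 0.32, against 0.00 over all tested genes.

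Lypd8 was the gene called lower among 15 tested of the pit and surface mucous list, and Pycard among 12 tested inflammasome genes (0.254% of all tested genes). Lypd8, an epithelial protein of the colon that keeps flagellated bacteria off the mucosa, had 31.4, 25.2 and 17.1 CPM in homozygous libraries, against 44.6, 135 and 408 CPM in wild type (-2.99 ± 0.78, DESeq2 adjusted p = 0.00265). The estimate was -1.87 without wild-type replicate 3, and the call held in 3 of 9 fits. Prap1, a secreted proline-rich protein that stands in none of the lists, had 75.4, 107 and 59.8 CPM in homozygous libraries, against 197, 229 and 877 CPM in wild type (-2.43 ± 0.56, DESeq2 adjusted p = 0.000995). It kept its call in every fit that left out a library, with an estimate of -1.41 without wild-type replicate 3. Pycard, the inflammasome adaptor ASC, had 23.3, 19.3 and 14.6 CPM in homozygous libraries, against 32.2, 43.6 and 64.1 CPM in wild type (-1.29 ± 0.33, DESeq2 adjusted p = 0.0348), with the call kept in 4 of 9 fits. Of the 12 inflammasome genes, 11 had a fitted value below 0 (49.8% of all tested genes) and 3 lay without overlap on the lower side (4.17% of all). The median was -0.69, and -0.40 without wild-type replicate 3. Naip2, a sensor of bacterial secretion systems whose reads may be shared with its close paralogs, had 48.4, 50.4 and 35.6 CPM in homozygous libraries, against 59.9, 59.4 and 74.8 CPM in wild type (-0.53 ± 0.17, DESeq2 adjusted p = 0.25). Gsdmd, the pore protein of pyroptosis, overlapped at 240 to 407 CPM in homozygous libraries, against 327 to 582 CPM in wild type (-0.51 ± 0.36).

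Of the liver-type and detoxifying enzymes on the lists, DESeq2 called only Cps1 (0.254% of all tested genes were called lower). Of 27 tested liver-type genes, 26 had a fitted value below 0 (49.8% of all tested genes) and 1 lay without overlap on the lower side (4.17% of all), with a median of -0.54; without homozygous replicate 3 the median was -0.07. Cps1, the first enzyme of the urea cycle, had 117, 124 and 34.5 CPM in homozygous libraries, against 192, 468 and 466 CPM in wild type (-2.03 ± 0.54, DESeq2 adjusted p = 0.00784), with homozygous replicate 3 the lowest and the call kept in 6 of 9 fits. Ttr, the thyroid hormone carrier, was at 8.77 to 32.9 CPM in homozygous libraries, against 31.7 to 77.2 CPM in wild type (-1.21 ± 0.51). Of 38 tested xenobiotic genes, 32 had a fitted value below 0 (49.8% of all tested genes), 5 lay without overlap on the lower side (4.17% of all) and none was called. The xenobiotic median was -0.42, and -0.18 without homozygous replicate 3. Ugt1a1, the bilirubin conjugating enzyme, whose reads may be shared with other genes of its cluster, had 0.696, 0.974 and 0.234 CPM in homozygous libraries, against 1.89, 2.16 and 3.81 CPM in wild type (-2.0 ± 0.62, DESeq2 adjusted p = 0.194). Cyp2c65, a cytochrome P450 of the gut, was at 6.2 to 26 CPM in homozygous libraries, against 23.9 to 141 CPM in wild type, which overlapped (-2.06 ± 0.68, and -0.98 without wild-type replicate 3). Adh6a, an alcohol dehydrogenase, had 3.28, 4.09 and 0.351 CPM in homozygous libraries, against 15.7, 34.6 and 19.6 CPM in wild type (-3.16 ± 0.85, DESeq2 adjusted p = 0.0106), and kept its call in 6 of 9 fits.

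The remaining genes called lower by DESeq2 belong to no single group. Clrn3, a clarin of the epithelium, had 4.87, 8.28 and 1.99 CPM in homozygous libraries, against 11.1, 19.5 and 25.6 CPM in wild type (-1.88 ± 0.49, DESeq2 adjusted p = 0.0207). Clca4 had 5.37, 1.46 and 5.97 CPM in homozygous libraries, against 6.02, 53.4 and 71.1 CPM in wild type, and Wdr72 had 12.9, 6.33 and 12 CPM in homozygous libraries, against 13.1, 81.5 and 63.1 CPM in wild type. In both the wild-type replicate 1 lay just above the homozygous libraries. Aqp4, a water channel, was the gene called lower besides Heph in the ion and iron transport list. It had 130, 129 and 97.7 CPM in homozygous libraries, against 209, 186 and 203 CPM in wild type (-0.74 ± 0.18, DESeq2 adjusted p = 0.0133), a small and even difference. Hopx, a homeodomain-only protein, was at 23.5 to 42.3 CPM in homozygous libraries, against 54.9 to 84.8 CPM in wild type (-1.06 ± 0.26). Rps29, a ribosomal protein gene, had 298, 276 and 217 CPM in homozygous libraries, against 445, 450 and 367 CPM in wild type (-0.67 ± 0.15, DESeq2 adjusted p = 0.00455). Tax1bp1 (-0.66 ± 0.17), Atp5k (-0.66 ± 0.16) and H2-Q2 (-1.35 ± 0.35) were also called lower, and reads of H2-Q2 may be shared with related histocompatibility genes. With a library left out, the call held in 6 of 9 fits for Rps29, in 5 for Aqp4, Clca4, Hopx and Wdr72, in 4 for Clrn3, in 3 for Tax1bp1 and in 2 for Atp5k and H2-Q2. Clrn3, Clca4, Hopx, Tax1bp1, Atp5k, H2-Q2, Calml4, Fcgbp and Spink4 were named after their values were seen, to complete the account of the genes called lower.

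No gastric transcription factor was called. Of 17 gastric factors, 14 were tested and 0 lay without overlap on either side (8.9% of all tested genes). Their median was -0.20, and 0.06 without homozygous replicate 3. Nkx6-3, a homeobox gene of the antrum, was at 53.3 to 77.2 CPM in homozygous libraries, against 68.3 to 90.5 CPM in wild type (-0.32 ± 0.20). The gland mucin Muc6 had 1010, 1270 and 1380 CPM in homozygous libraries, against 942, 858 and 493 CPM in wild type (0.67 ± 0.30, DESeq2 adjusted p = 0.599). Cldn2, of the same gland and chief list, went the other way, with 212, 165 and 144 CPM against 234, 239 and 223 CPM (-0.42 ± 0.23). Of the 10 tested genes of that list, 8 had a fitted value above 0 (50.2% of all tested genes). On each side 1 lay without overlap (4.17% of all lower, 4.73% higher). Gkn3, a gastrokine, overlapped between the groups (0.40 ± 0.49). Enteroendocrine genes had 0 of 13 tested members without overlap, and Chgb, a granule protein, was at 1.05 to 14.1 CPM in homozygous libraries, against 11 to 45.9 CPM in wild type (-2.11 ± 0.86, DESeq2 adjusted p = 0.296, and -3.44 without homozygous replicate 2). Proliferation genes (21 tested, median 0.11), stem cell and Wnt target genes (22 tested, median 0.11) and tuft cell genes (6 tested, median -0.09) had 0 members without overlap. The stem cell and Wnt target median was -0.10 without wild-type replicate 3. All 24 tested genes of oxidative phosphorylation had a fitted value below 0 (49.8% of all tested genes), and 6 lay without overlap on the lower side (4.17% of all). Their median was -0.16, and -0.05 without homozygous replicate 3. Uqcrc2, a subunit of complex III, had 257, 266 and 224 CPM in homozygous libraries, against 290, 293 and 305 CPM in wild type (-0.25 ± 0.13, DESeq2 adjusted p = 0.804). In the unfolded protein list 18 of 20 genes had a fitted value above 0 (50.2% of all tested genes) and 3 lay without overlap on the higher side (4.73% of all). Hyou1, an endoplasmic reticulum chaperone, had 274, 352 and 453 CPM in homozygous libraries, against 234, 225 and 248 CPM in wild type (0.61 ± 0.27, DESeq2 adjusted p = 0.623).

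Genes called higher by DESeq2 were mainly absent or nearly absent in wild type and varied widely between homozygous libraries. Of the 148, 135 had a wild-type mean below 1 CPM, against 637 of all 12593 tested genes, and 52 had 0 wild-type reads. The count filter saw all 9 libraries, so genes with few wild-type reads could pass only through libraries in which they were high. These counts of low wild-type levels are therefore set in part by the filter. Homozygous replicate 3 was the highest of the 3 for 147 of the 148, against 39.6% of all tested genes. That order too is set in part by the filter, since genes could pass through this library. Only 21 genes were called higher when homozygous replicate 3 was left out. Wnt3a, a Wnt ligand that is commonly supplied to such cultures, had 95.1, 196 and 2050 CPM in homozygous libraries, against 0, 0.24 and 4.32 CPM in wild type. Serpinh1, the collagen chaperone, had 16.5, 60 and 571 CPM in homozygous libraries, against 0.719, 1.68 and 1.14 CPM in wild type (ratio 173, DESeq2 adjusted p = 3.09e-05). Every homozygous library was above every wild-type library in both. Vim, an intermediate filament gene of mesenchyme, had 17.1, 36.9 and 458 CPM in homozygous libraries, against 3.95, 3.13 and 0.382 CPM in wild type. Col6a3, a collagen chain, had 3.68, 15.6 and 172 CPM in homozygous libraries and 1 read in all wild-type libraries, for a ratio of 1580 (95% counting interval 282 to 62300). Wisp1, a matrix signalling protein, had 2.88, 9.74 and 55.1 CPM in homozygous libraries and 0 reads in wild type, at least 189-fold higher against 3 counts over the group. Hoxb9, a posterior homeobox gene, had 1.59, 5.84 and 59 CPM in homozygous libraries and 2 reads in wild type (ratio 274, interval 75.6 to 2270). Hoxc8 had 0.696, 1.95 and 18.1 CPM in homozygous libraries, and Hoxb2 had 0.696, 1.27 and 9.59 CPM. Both had 0 wild-type reads. With reads pooled over each group, they were at least 57.4-fold and 32.2-fold higher against 3 counts. These pooled bounds do not hold for each homozygous library. Without homozygous replicate 3 the fitted log2 fold change was 5.03 for Serpinh1, against 7.53 with it, and 3.38 for Vim, against 6.04. Of the 148 genes, 12 were called again whichever of the 9 libraries was left out, Serpinh1, Col6a3, Wisp1, Hoxb9 and Hoxc8 among them. Hoxb2, Wnt3a and Vim lost their call without homozygous replicate 3, and held it in 8, 6 and 5 of the 9 fits.

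Of 28 fibroblast list genes, 19 passed the count filter, which also saw heterozygous replicates 2 and 3, whose sums over the list were 2510 and 3240 CPM. No count over those that passed is given, since genes could pass through the libraries in which they were high. Lum was at 0 in all 6 libraries, as were Col6a2, Thy1 and Postn, while in homozygous libraries Dcn reached at most 0.389 CPM, Acta2 0.298 CPM and Col1a2 0.819 CPM. Fn1, fibronectin, had 267, 401 and 845 CPM in homozygous libraries and 411, 256 and 440 CPM in wild type, which overlapped (0.45 ± 0.40). The 21 posterior Hox genes summed to 6.56, 16.7 and 184 CPM in homozygous libraries, against 0.809, 0 and 0.254 CPM in wild type, and 9 of them were at 0 in all 6 libraries. Wnt3a, Rspo3 and Nog, whose proteins are used to grow such organoids, summed to 102, 214 and 2190 CPM in homozygous libraries, against 4.22, 2.77 and 4.71 CPM in wild type. The homozygous library with the highest sums of these 3 lists also had the lowest epithelial sum, and the part of these transcripts in the results above was not tested. Without homozygous replicate 3, Cdx2 had a log2 fold change of -5.41, Lgals2 of -3.02 and Cdhr5 of -2.42. Wipf1, an actin regulator, was a gene called higher with a substantial wild-type level, with 26.3, 22.8 and 29.7 CPM in homozygous libraries, against 13.3, 14.4 and 17.8 CPM in wild type (0.79 ± 0.19, DESeq2 adjusted p = 0.0242).

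**Figure D4:**
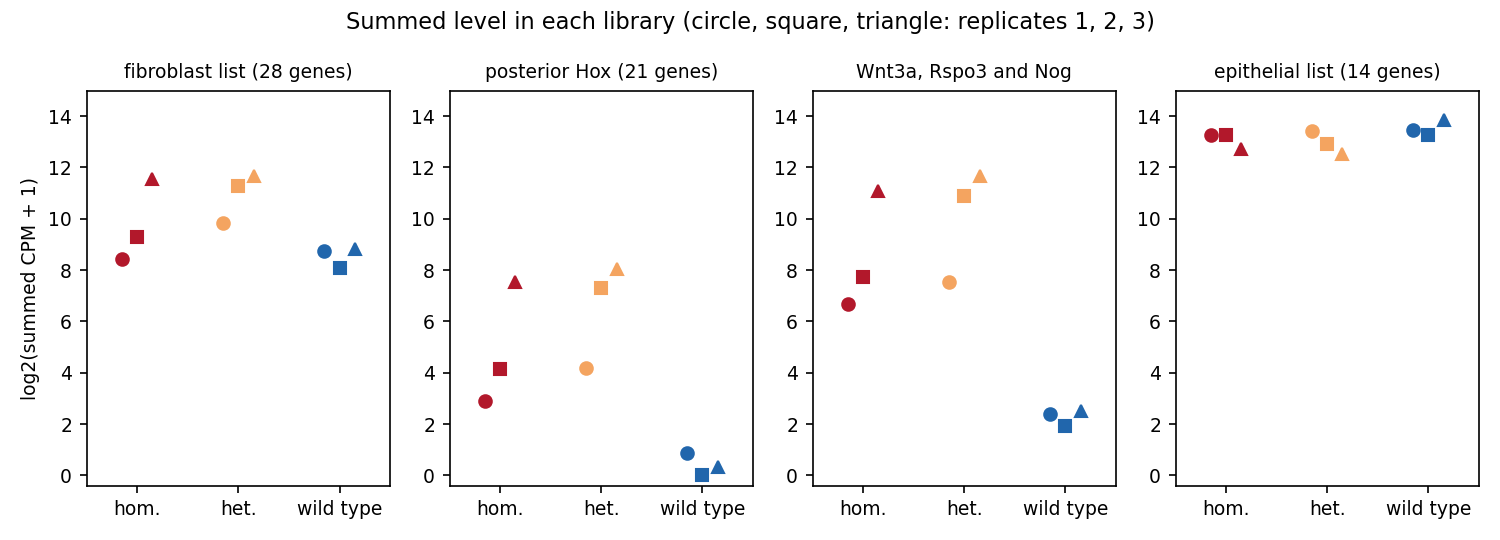
Summed level, on a log2(CPM + 1) axis, of 4 gene lists in each homozygous, heterozygous and wild-type library. The posterior Hox and growth factor sums lie above wild type in every library with the deletion. The fibroblast sums of homozygous replicates 1 and 2 were 345 and 629 CPM, against 272 to 453 CPM in wild type. Fn1 alone gave 267 and 401 CPM of those homozygous sums, and 256 to 440 CPM of the wild-type ones.

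The genes called lower were also read in libraries where CDX2 was added. Gastric organoid lines carrying lentiviral CDX2 were compared with lines carrying GFP, 3 libraries each, which share no sample with the deletion experiment; the labels of these lines give gastric organoids in a field and small intestine organoids in another. Cdx2 itself averaged 183 CPM in CDX2 lines and 4.86 CPM in GFP lines, but reads of the added gene cannot be told from its own, so it is left out of the counts that follow. Of the other 31 genes called lower by DESeq2 in homozygous organoids, 30 (96.8%) had a fitted value above 0 in CDX2 lines, against 50.4% of all 12720 genes. By edgeR 11 of the 31 (35.5%) were called higher, against 0.338% of all genes. With line number as a block 22 of the 31 were called higher, against 2.59% of all genes. Gucy2c averaged 66.1 CPM in CDX2 lines and 0.0708 CPM in GFP lines (edgeR adjusted p = 0.00124). Cdh17 averaged 470 CPM in CDX2 lines and 3.24 CPM in GFP lines (7.18 ± 0.79, edgeR adjusted p = 0.00625), and B4galnt2 279 CPM in CDX2 lines and 2.22 CPM in GFP lines (6.97 ± 0.31, edgeR adjusted p = 7.3e-06). Cdhr5, Fcgbp, Clca4, Clrn3, Hopx, Heph, Calml4 and Slc5a1 completed the 11. Wdr72 was the exception below 0 (-1.44 ± 1.59), and Hkdc1 (0.11 ± 0.81), Rps29 (0.44 ± 0.71) and Tax1bp1 (0.40 ± 0.20) were not called. Lgals2, at 81.4 CPM in CDX2 lines and 9.99 CPM in GFP lines, was not called without the block (3.02 ± 0.58, edgeR adjusted p = 0.068) and was called with it (adjusted p = 0.0106). Higher levels than in GFP lines were not particular to CDX2 lines. In lines carrying HNF4A, Gucy2c averaged 36 CPM, Cdh17 103 CPM, B4galnt2 51.7 CPM and Lgals2 67.2 CPM. EdgeR called the first 3 of these higher there and not Lgals2. Cps1 averaged 275 CPM in HNF4A lines, 1.52 CPM in CDX2 lines and 0.284 CPM in GFP lines. The 31 genes were not counted in HNF4A lines.

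**Figure D5:**
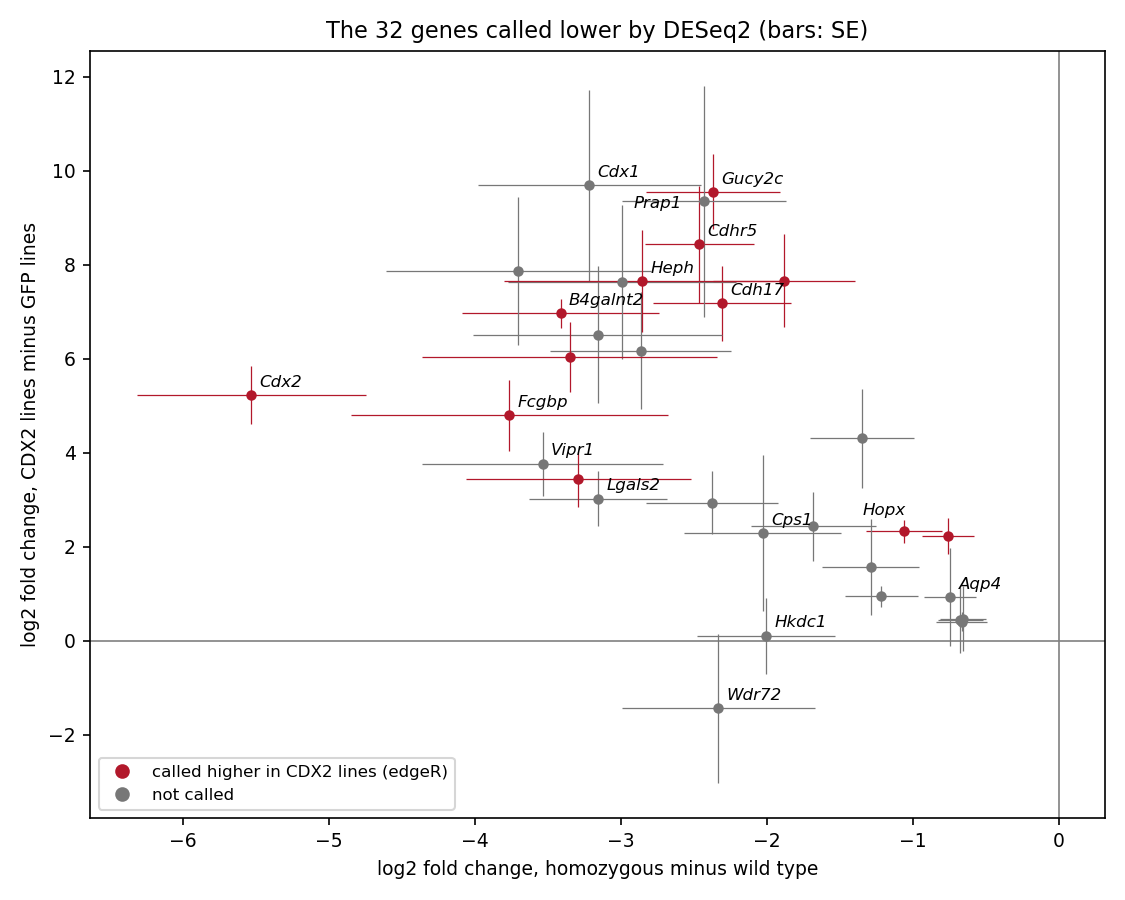
Log2 fold change in CDX2 lines over GFP lines against that in homozygous over wild-type organoids, with SE bars, for the 32 genes called lower by DESeq2. All points but Wdr72 lie above 0 on the vertical axis, and the 12 genes called higher in CDX2 lines by edgeR, Cdx2 itself among them, are coloured red.

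Between homozygous and heterozygous organoids, DESeq2 called 1 gene, Cdx2 (0.00794% of genes). Lgals2 averaged 11 ± 2.84 CPM in homozygous and 26.4 CPM in heterozygous organoids, a log2 difference of -1.26 ± 0.45. Cdhr5 averaged 6.57 CPM in homozygous and 19.1 CPM in heterozygous organoids (-1.54 ± 0.36). Neither difference was called by edgeR or by DESeq2. Aqp4 averaged 119 CPM in homozygous and 94.3 CPM in heterozygous organoids (0.34 ± 0.18), the reverse order. It was the exception, since 31 of the 32 genes called lower had a lower mean in homozygous than in heterozygous organoids. Those genes were picked for low homozygous values, which favours that order.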

How the data were processed

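RNA was measured in 6 libraries of HNF4A-overexpressing stomach antrum organoids, 3 homozygous for the enhancer deletion and 3 wild type, with 3 heterozygous libraries in the fit. Values are raw counts of reads per gene symbol, deposited by the authors; STAR and mm10 are named per the submitters' processing notes, while no source used here names the counting program, its strand setting or the annotation. Without a strand setting, overlapping genes may share reads. Poly-A libraries were sequenced as paired reads, per the labels' protocols.

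Counts of the 9 libraries entered edgeR 4.0.16 under R 4.3.3 (TMM, robust quasi-likelihood F test, two-sided, Benjamini-Hochberg) with genes kept by filterByExpr (at least 10 counts, 15 in total), which left 12593 genes; 12720 were kept in the separately fitted lines. DESeq2 1.42.0 and limma 3.58.1 (voom) were alternatives; the text leans on DESeq2 calls as such. SE is the log2 fold change over the square root of F. CPM uses TMM-scaled library sizes; 3 reads are 0.27 to 0.381 CPM. Replicates of the 2 genotypes differed by a chi-square of 23.71 to 62.69 per degree of freedom, well beyond counting noise, and floors and intervals cover counting error only. Scripts were tested on simulated data.

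The members, gene lists and tests were chosen with earlier results of these data known. Named genes are the Cdx and HNF4 factors, Isx and neighbours of Cdx2; the 12 smallest edgeR p on each side; up to 25 lower and 10 higher genes called by DESeq2 with and without the 3 libraries richest in fibroblast-list transcripts; and for each list the 2 smallest p and the most abundant member. Of 727 list entries, 6 symbols were not in the table. Positions and promoters are from RefSeq (GRCm38.p6). Genes named outside that rule are identified in the text. Of the genes called lower by DESeq2, 1 is counted but not reported here.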

Additional observations from a re-analysis of the deposited data

How the results depend on the processing

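The tool decided most calls. In homozygous against wild-type organoids edgeR called 0 genes, DESeq2 180 and a replicate block 5 (Igfbp6, Rcn3, Wnt3a and Olfml3 higher, B4galnt2 lower); every other alternative of the edgeR fit called 0, the newer quasi-likelihood method (added later) included, and the planned legacy method is the one already used. Same-number deviations of homozygous and wild-type libraries correlated at -0.149, -0.0327 and 0.264, so replicate numbers did not pair the samples throughout. Homozygous replicate 1 correlated at 0.365 with wild-type replicate 2, and homozygous replicate 2 at 0.342 with wild-type replicate 1. The remaining pairs of unlike number were below 0. Whether libraries of the 2 genotypes share a batch was not tested. Under the replicate block Cdx2 was at -5.42 (edgeR adjusted p = 0.117). Cdx2 was below 0 in all 19 alternatives, from -6.42 to -4.89, and passed the threshold by DESeq2 alone (-5.55); homozygous against heterozygous, it passed by DESeq2 at -3.94. The DESeq2 counts by alternative were added after seeing the data. DESeq2 called 35 genes higher with homozygous and wild-type libraries only and 34 without the 3 libraries richest in fibroblast-list transcripts, and leaving out each library gave 21 to 242 higher and 14 to 52 lower. Genes without overlap numbered 1121, 1954 without those 3 libraries, and 1994 to 2671 with a library of either genotype left out, where fewer libraries make separation easier by construction. CDX2 against GFP lines gave 52 calls, 493 by DESeq2, 4 by limma-voom and 578 with a replicate block, and 11 to 107 without a single line. Among named genes, log2 fold changes ran with 1 library left out from -0.419 to 0.00543 for Lgals3bp, from -0.25 to 0.64 for Agr2, from -0.16 to 0.96 for Gkn3 and from -0.14 to 0.76 for Fn1, and without the 3 libraries Lgals3bp was at 0.011 and Fn1 at -0.14; the cause was not tested. Of 35 lists with a median, 9 changed sign in at least 1 alternative.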
